A study of Mus musculus with 4 samples.

Results

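A total of 107 microRNA genes held at least 20 reads over the 4 libraries of a ribosome profiling (Ribo-seq) experiment on mouse primary myoblasts, the cultured progeny of muscle satellite cells. They were selected on recovered read counts from 2207 rows of the gene table whose class is miRNA, and the table had 55573 rows in all. The imprinted Dlk1-Meg3 region of chromosome 12, whose 66 microRNA genes lie between 109544541 and 109747960 and of which 12 reached the same count, was left out by the rule. The values that chose the genes were the reads summed over all libraries, so the levels themselves are a description. Below the threshold, 172 microRNA genes had 1 to 19 reads and 1916 were listed at 0. Mir181c, Mir34a and Mir96 lay just inside with 20 reads each, and Mir302b, Mir1964 and Mir500 just outside with 19 each. One selected row, Snord43, carries the name of a small nucleolar RNA although its class is miRNA.

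The experiment had 2 wild-type (WT) libraries and 2 libraries labelled KO. KO mice were Pax7CreERT2/+;eIF5A f/f, in which tamoxifen deletes the gene of the translation factor eIF5A in cells that express Pax7, the transcription factor of satellite cells. For the WT mice the labels give only the genotype WT, and the study describes its controls both as Pax7CreERT2/+ and as Pax7+/+;eIF5A f/f. Both groups came from hind-limb muscle of 3-week-old littermates without sorting, were grown with FGF to day 2 of proliferation and received cycloheximide before lysis. How many animals stand behind each library was not given, so p-values measure only the spread between these libraries. Eif5a itself was not lower in the libraries labelled KO, with 60.3 and 59.4 RPKM against 34.9 and 65.2 RPKM in WT replicates 1 and 2. Its log2 difference was 0.32 ± 0.46 (SE, limma, adjusted p = 0.812), so these values show no loss of reads from the targeted gene, and KO is used below as the name the labels give.

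MicroRNAs are short regulatory RNAs that guide Argonaute proteins to partly complementary messenger RNAs and lower their translation or stability. A microRNA gene gives a hairpin that Drosha cuts in the nucleus, exportin 5 carries out and Dicer trims, and the target is found mainly through the seed, bases 2 to 8 of the mature strand. Genes whose products share a seed form a family with overlapping targets. In skeletal muscle, miR-1, miR-133 and miR-206 are the classical muscle microRNAs, and let-7 is known as a family that accumulates as cells mature. These genes encode no protein, so their reads in a footprint library are given here as read counts and not as translation. The table holds 1 value per gene, so the 5p and 3p strands of a hairpin could not be told apart.

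The mature sequences of the families that took most reads are shown to make the shared seeds visible, with the seed in capitals. They are RefSeq entries of build GRCm38.p6 and show the better known strand of each hairpin. The first pair, miR-10, differs at a single position outside the seed (A12U, counted from the 5′ end of miR-10b). miR-99a and miR-99b share another seed, and miR-148a, miR-148b and miR-152 have a seed of their own.
miR-10b-5p: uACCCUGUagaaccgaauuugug
miR-10a-5p: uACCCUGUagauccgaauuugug
miR-99a-5p: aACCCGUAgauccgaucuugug
miR-99b-5p: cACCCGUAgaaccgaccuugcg
miR-148a-3p: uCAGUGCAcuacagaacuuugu
miR-148b-3p: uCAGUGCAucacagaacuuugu
miR-152-3p: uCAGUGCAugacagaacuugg

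The 3 selected genes of the let-7 family share 1 seed and differ in their 3′ portions. let-7f-5p is also made from Mirlet7f-1, so a read on it cannot always be placed.
let-7g-5p: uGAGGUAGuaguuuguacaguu
let-7f-5p: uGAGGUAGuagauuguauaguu
miR-98-5p: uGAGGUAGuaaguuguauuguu

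On the X chromosome, some neighbouring genes share a seed, as miR-221 with miR-222 and miR-363 with miR-92a. miR-20b, from the cluster of the latter pair, has another seed, and the clustered miR-322 and miR-503 differ in the last seed base. The sequences are shown because the clusters differ in how their levels compared between the groups. The first pair comes from Mir221 and Mir222, the second from Mir363 and Mir92-2. miR-92a-3p is made from Mir92-1 as well.
miR-221-3p: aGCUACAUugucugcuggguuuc
miR-222-3p: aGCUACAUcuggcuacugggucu
miR-363-3p: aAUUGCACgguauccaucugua
miR-92a-3p: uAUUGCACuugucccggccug
miR-20b-5p: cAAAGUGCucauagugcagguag
miR-322-5p: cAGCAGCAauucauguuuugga
miR-503-5p: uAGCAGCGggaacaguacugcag

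The libraries held 642429 to 704006 gene-assigned reads. All microRNA genes together took 4.30% of these in WT replicate 1 (95% Wilson interval 4.25 to 4.35), 16.8% in WT replicate 2 (16.7 to 16.9), 2.31% in KO replicate 1 (2.28 to 2.35) and 2.85% in KO replicate 2 (2.81 to 2.89). Both KO libraries were below both WT libraries, and the WT libraries were farther from each other than WT replicate 1 was from either KO library. The group means were 10.5% ± 8.83 (SD, n = 2) in WT and 2.58% ± 0.379 (SD, n = 2) in KO, a difference of -7.96 percentage points (two-sided exact permutation test, p = 0.33, the smallest p that 2 libraries against 2 allow). Without WT replicate 2 the difference was -1.72 percentage points. In bulk samples, fewer cells of a type and less RNA per cell cannot be told apart. Intervals cover counting error only, since the reads carry no molecular identifiers.

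**Figure D1:**
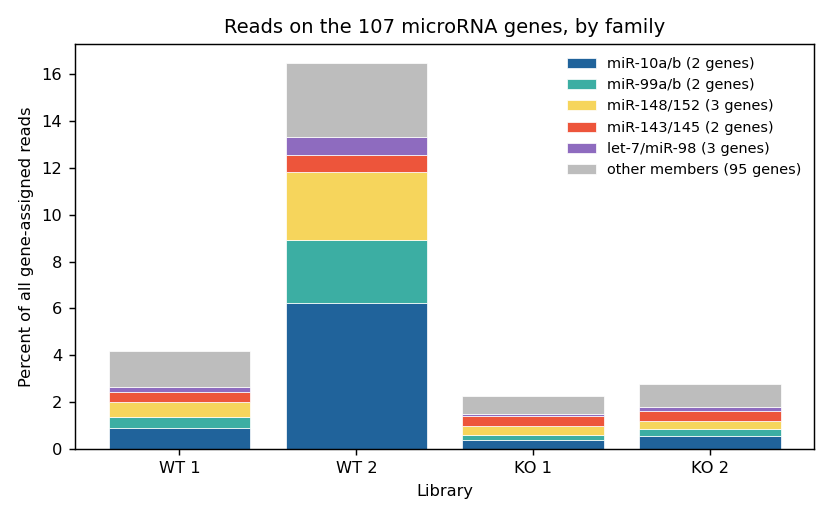
Stacked bars give the percent of all gene-assigned reads (y axis) that fell on the 107 microRNA genes in each library (x axis), split by family. WT 2 stands at 16.5% and the other 3 libraries between 2.24% and 4.16%, and the miR-10 pair alone took 6.21% of all reads in WT 2.

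The selected genes had 26987 reads in WT replicate 1, 105799 in WT replicate 2, 15793 in KO replicate 1 and 18002 in KO replicate 2. By reads over the 4 libraries, 19 genes had at least 1000, 34 had fewer than 100 and 54 lay between. In 18 genes at least 1 library was at or under the floor of 3 reads, and 1 gene, Mir20b, had no read in WT replicate 1. WT replicate 2 was the highest library for 92 of the 107 genes (86.0%), against 21.2% of the other 9072 genes tested. The level in WT replicate 2 was above that in WT replicate 1 for 93 genes, with a median log2 difference of 1.58 between these libraries, against -0.04 in the other genes. The spread within WT was thus of the same order as the differences between the groups that follow.

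Levels are given from here as scaled reads, which are reads divided by the size factor that the deposited values contain (0.893 and 0.698 for WT, 1.34 and 1.20 for KO), so that the typical gene is equal between libraries. Differences are KO minus WT on the scale log2(scaled reads + 1), with the standard error of limma. In this fit 1 of the 107 genes passed an adjusted p of 0.05 and it was lower, where 0.0763% of all 9179 genes tested passed, 7 in all and each of them lower. At an unadjusted p under 0.05, 69 of the 107 genes were lower and 0 higher, against 923 of all genes tested (10.1%) in either direction. Both KO libraries were below both WT libraries in 76 genes (71.0%), where 20.8% of all genes tested had this order. Both KO libraries were above both WT libraries in 0 genes, where 22.7% of all genes tested had this order, and the groups overlapped in 31. The median log2 difference of the 107 genes was -1.74, with 102 below 0 and a range of -3.66 to 2.48, against 0.05 over all genes tested. It was -1.12 without WT replicate 2 and -2.65 without WT replicate 1.

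Because reads in the WT libraries helped genes pass the threshold, the same counts were taken on genes that would have passed on the KO libraries alone. These were 80 genes, and 59 of them (73.8%) had both KO libraries below both WT libraries, where 17.0% of the 7410 genes tested that met the same condition did so. Scaled to the total of gene-assigned reads, 61 genes (57.0%) had both KO libraries below both WT libraries, where 6.32% of all genes tested did. The 15 genes that overlapped on that scale but not in scaled reads included Mir143, Mir15b, Mir23a, Mir27a, Mir34a, Mir200b, Mir200c, Mir203 and Mir452. On it 2 genes, Mir20b and Mir574, had both KO libraries above, where 48.2% of all genes tested did. The scaling to total reads moved the median of all genes tested to 0.62 and that of the 107 genes to -1.14. Scaled to the sum of microRNA reads, the median of all genes tested was 2.16 and that of the 107 genes was 0.47, so that the sign of the latter turned.

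**Figure D2:**
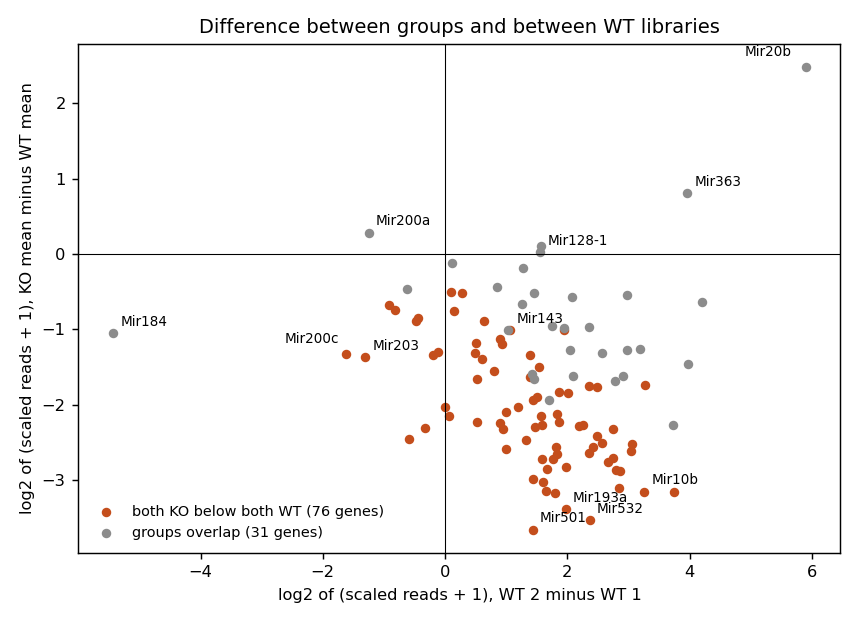
Each point is 1 of the 107 microRNA genes, with the log2 difference between the WT libraries (WT 2 minus WT 1) on the x axis and the log2 difference between group means (KO minus WT) on the y axis, both on scaled reads + 1. Most points lie to the right of 0 and below 0, and the 76 genes with both KO libraries below both WT libraries are in orange.

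Mir501 (chromosome X, 7241243 to 7241351, minus strand), carried with its neighbours in an intron of the chloride channel gene Clcn5, was the gene that passed. It had 39.2 and 108 scaled reads in WT and 2.98 and 5.85 in KO, with replicate 1 given first here and in all pairs that follow. The groups did not overlap, and the KO levels rested on 4 and 7 reads. With 11 reads in the KO libraries, Mir501 reached the threshold of 20 reads only through WT, where it was higher, and it is not among the 80 genes that would have passed on the KO libraries alone. Mir501 fell by 3.66 ± 0.56 on the log2 scale (SE, limma, adjusted p = 0.0408). It passed in 9 of 14 alternative fits, over which its adjusted p ran from 9.16e-09 to 0.408, and it was lower in all of them.

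The next 4 of the 5 largest decreases among genes whose groups did not overlap missed the threshold. Mir532, of the same cluster, had 258 and 1332 scaled reads in WT and 38.0 and 65.2 in KO, with a log2 difference of -3.53 ± 0.64 (SE, limma, adjusted p = 0.0513). Mir193a (chromosome 11) had 14.6 and 60.2 in WT and 2.23 and 1.67 in KO, the latter from 3 and 2 reads, so it too reached 20 reads only through WT, with a log2 difference of -3.39 ± 0.71 (limma, adjusted p = 0.0976). In both genes every KO library was below every WT library by several fold. Mir99b (chromosome 17, 17830188 to 17830257) had 238 and 829 scaled reads in WT and 49.9 and 46.8 in KO, a log2 difference of -3.17 ± 0.55 (limma, adjusted p = 0.0503). Mir322 (chromosome X) had 28.0 and 388 in WT and 15.6 and 7.53 in KO, a log2 difference of -3.16 ± 0.85 (limma, adjusted p = 0.234). Its WT libraries differed 13.9-fold. There was no increase to name, since in no gene did both KO libraries lie above both WT libraries on this scale.

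The miR-10/99/100 family, whose Hox-cluster members Mir10a and Mir10b sit among the genes of body patterning, took the most reads. Its 4 selected genes held 33.1% and 54.0% of the reads of the 107 genes in WT and 27.0% and 30.3% in KO. Mir10b (chromosome 2, 74726070 to 74726137, plus strand) had 3716 scaled reads in WT replicate 1, 35655 in WT replicate 2, 1018 in KO replicate 1 and 1636 in KO replicate 2. Mir10a (chromosome 11, 96317165 to 96317274, plus strand) had 2624, 21563, 1037 and 1442 in the same order. In both, WT replicate 2 was 8.22- to 9.59-fold above WT replicate 1, and the groups did not overlap. The log2 differences were -3.16 ± 0.97 for Mir10b and -2.62 ± 0.90 for Mir10a (SE, limma, adjusted p = 0.354 and 0.401). Without WT replicate 1 they were -4.79 and -4.14, and without WT replicate 2 they were -1.52 and -1.10. With a lone WT library neither fit holds the spread within WT.

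Mir99a (chromosome 16, 77598936 to 77599000, plus strand) had 3425 and 23900 scaled reads in WT and 1074 and 1428 in KO, with a log2 difference of -2.87 ± 0.89 (limma, adjusted p = 0.357). All 4 genes of the family had both KO libraries below both WT libraries, an order that 20.8% of all genes tested had, and their median log2 difference was -3.01. It was -2.40 when scaled to total reads and -0.67 when scaled to microRNA reads, -1.50 without WT replicate 2 and -4.20 without WT replicate 1. Mir100, the fifth gene, which shares the seed of miR-99, was listed at 0 in every library, and its whole length lies inside an exon of the antisense gene Gm48742. A level of miR-100 can thus not be read from these values.

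miR-148a and its seed relatives, which are known to target the DNA methyltransferase Dnmt1, held 12.6% to 17.6% of the reads of the 107 genes in each library. Mir148a (chromosome 6, 51269812 to 51269910, minus strand) had 4273 and 25407 scaled reads in WT and 1873 and 1774 in KO, a log2 difference of -2.51 ± 0.90 (limma, adjusted p = 0.402). It was -3.80 without WT replicate 1 and -1.23 without WT replicate 2. Mir152 had 165 and 1186 in WT and 46.2 and 55.2 in KO, a log2 difference of -3.11 ± 0.69 (limma, adjusted p = 0.113). Mir148b had 104 and 163 in WT and 73.7 and 66.1 in KO, a log2 difference of -0.89 ± 0.44 (limma, adjusted p = 0.528). The groups were separate in each of the 3, an order with KO lower that 20.8% of all genes tested had, and none passed the test on all libraries. The WT libraries were 7.20-fold apart for Mir152 and 1.57-fold apart for Mir148b.

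Mir143 (chromosome 18, 61649196 to 61649258, minus strand), known from smooth muscle and mesenchymal cells, was the fifth gene by reads. It had 3083 and 6432 scaled reads in WT and 2053 and 2367 in KO, and its log2 difference was -1.01 ± 0.73 (limma, adjusted p = 0.628). As a percent of all gene-assigned reads its groups overlapped, with 0.424% and 0.698% in WT and 0.392% and 0.435% in KO. As a share of the reads of the 107 genes it was higher in KO, at 17.5% and 15.7% against 10.2% and 4.24% in WT. Its direction thus depended on the denominator. Mir145a, its cluster partner, had 115 and 598 scaled reads in WT and 81.9 and 72.7 in KO, a log2 difference of -1.76 ± 0.62 (limma, adjusted p = 0.402).

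**Figure D3:**
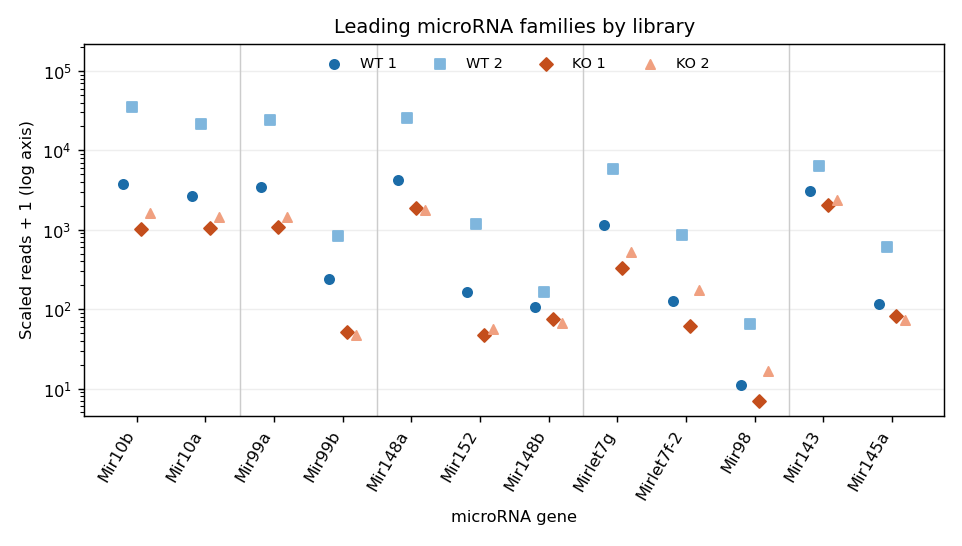
Points give scaled reads + 1 on a log axis in each of the 4 libraries for 12 genes of the leading families, with vertical lines between families. WT 2 is the highest library for every gene shown, and the KO libraries lie below WT 1 except for Mirlet7f-2 and Mir98, where KO 2 lies above it.

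Of the let-7 family, 12 genes were in the table, 3 were selected, 2 had 1 to 19 reads and 7 were listed at 0. Mirlet7g (chromosome 9, 106178840 to 106178927, plus strand) had 1142 and 5835 scaled reads in WT and 326 and 523 in KO, and its groups did not overlap. Its log2 difference was -2.64 ± 0.72 (SE, limma, adjusted p = 0.236). Mirlet7f-2 (chromosome X, 151912346 to 151912428, plus strand) had 125 and 866 in WT and 60.3 and 171 in KO, with a log2 difference of -1.69 ± 0.74 (limma, adjusted p = 0.472). KO replicate 2 was above WT replicate 1 for this gene, so the groups overlapped. Mir98, in the same cluster, had 10.1 and 64.5 in WT and 5.96 and 15.9 in KO, a log2 difference of -1.31 ± 0.72 (limma, adjusted p = 0.553), and its groups overlapped in the same way.

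The median log2 difference of the 3 let-7 genes was -1.69. It was -0.30 without WT replicate 2, -3.08 without WT replicate 1, and 0.64 when scaled to microRNA reads, where its sign turned. When 1 library was left out, Mirlet7g ran from -3.82 to -1.46, Mirlet7f-2 from -3.08 to -0.30 and Mir98 from -2.60 to -0.03. As a share of the reads of the 107 genes, let-7 was nearly level, with 4.22% and 4.46% in WT and 3.34% and 4.72% in KO. Mirlet7c-1, with 18 reads, lay just below the threshold. The 7 let-7 genes listed at 0, among them Mirlet7i, Mirlet7b and the cluster of Mirlet7a-1, Mirlet7f-1 and Mirlet7d, all overlap an exon of another gene.

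None of the 12 muscle microRNA genes of the list reached 20 reads. Mir499, carried in the myosin gene Myh7b, had 1 read in each WT library, 4 in KO replicate 1 and 1 in KO replicate 2, at or near the floor. The other 11, with Mir1a-1, Mir133a-2, Mir133b, Mir206, Mir208a, Mir208b and Mir486 among them, were listed at 0 in all libraries. Mir133b lies wholly and Mir206 partly inside exons of the annotated RNA Gm28653 on the same strand, and 6 of the 11 overlap an exon of another gene. The remaining 5, Mir1a-1, Mir133a-1, Mir133a-2, Mir208a and Mir208b, overlap none. Mir133a-1, Mir133a-2 and Mir1a-2 had no mature entry, so sequences shared among the copies of miR-133a and of miR-1a could not be checked. How reads with several matches were treated is not given, so these counts of 0 are not read as absence. No group difference can be given for these genes.

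On the X chromosome, 23 of the 107 genes were selected, of 142 microRNA genes there, and they took 4.26% and 3.93% of the reads of the 107 genes in WT and 4.52% and 5.81% in KO. Of these, 16 lay in 6 clusters with gaps of at most 10 kb between neighbours. Both KO libraries were below both WT libraries in 14 of the 23 and in 62 of the 84 elsewhere, where 20.8% of all genes tested had this order. The median log2 difference was -2.03 on X and -1.65 elsewhere, and scaled to microRNA reads the medians were 0.047 and 0.58. Without WT replicate 2 they were -1.21 and -1.08. Without WT replicate 1 the medians were -2.79 on X and -2.32 elsewhere.

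The cluster of Mir532, Mir501 and Mir362 (7237683 to 7248497) held 307 and 1449 scaled reads in WT and 43.9 and 71.9 in KO. Mir362 had 10.1 and 10.0 in WT and 2.98 and 0.836 in KO, a log2 difference of -2.03 ± 0.91 (limma, adjusted p = 0.485), and like Mir501 had fewer than 20 reads in the KO libraries. All 3 genes had separate groups, and the cluster's median log2 difference of -3.53 was the lowest of the 6; it was -2.35 without WT replicate 2 and -1.21 when scaled to microRNA reads. Mir500 and Mir188 of the same cluster were not selected. Mir500, just below the threshold with 19 reads, had 3 and 5 in WT and 6 and 5 in KO. It did not have the order of the 3 selected genes.

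The pair Mir221 and Mir222 (19146294 to 19146971), known for targeting the cell cycle inhibitor Cdkn1b and for declining as myoblasts differentiate, also had separate groups. Mir221 had 213 and 975 scaled reads in WT and 81.2 and 106 in KO, a log2 difference of -2.28 ± 0.61 (limma, adjusted p = 0.225). Mir222 had 190 and 405 recovered reads in WT and 115 and 116 in KO, a log2 difference of -1.94 ± 0.52 (limma, adjusted p = 0.225). Their share of the reads of the 107 genes was similar in the groups, at 1.41% and 1.03% in WT and 1.42% and 1.35% in KO.

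The cluster of Mir322, Mir503, Mir351 and Mir450b (53047997 to 53054349) carries relatives of miR-16 that restrain the cell cycle. Mir503 had 34.7 and 225 scaled reads in WT and 6.70 and 21.7 in KO, a log2 difference of -2.76 ± 0.73 (limma, adjusted p = 0.225). Mir450b had 5.60 and 34.4 in WT and 1.49 and 1.67 in KO, from 2 reads in each KO library, and reached 20 reads only through WT, with a log2 difference of -2.57 ± 0.92 (limma, adjusted p = 0.402). Mir351, with 7 reads in the KO libraries, had 2.24 and 24.4 in WT and 2.98 and 2.51 in KO, and its groups overlapped. Over the cluster, WT gave 63 and 469 reads against 36 and 40 for KO, and its median log2 difference of -2.67 was -1.32 without WT replicate 2.

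The pair Mir224 and Mir452 (72261031 to 72262308) lies within the gene of a GABA receptor subunit. Mir224 had 68.3 and 186 scaled reads in WT and 9.68 and 18.4 in KO, a log2 difference of -2.99 ± 0.53 (limma, adjusted p = 0.0503). Mir452 had 12.3 and 8.60 in WT and 5.21 and 5.02 in KO, from 13 reads in the KO libraries, a log2 difference of -0.89 ± 0.66 (limma, adjusted p = 0.638). Both had separate groups, though Mir452 not when scaled to total reads, and Mir452 was 1 of the 14 genes with less in WT replicate 2 than in WT replicate 1.

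The cluster of Mir363, Mir92-2 and Mir20b (52741693 to 52742567), is a relative of the miR-17 to miR-92 cluster, which is known as oncogenic. As in the pair of Mirlet7f-2 and Mir98, no gene of it had separate groups. It held 45.9 scaled reads in WT replicate 1, 449 in WT replicate 2, 154 in KO replicate 1 and 203 in KO replicate 2, so both KO libraries lay between the WT libraries. Mir363 had 15.7 and 258 in WT and 99.8 and 130 in KO, a log2 difference of 0.80 ± 0.86 (limma, adjusted p = 0.743). Mir20b had 0 and 58.8 in WT and 41.7 and 42.6 in KO, a log2 difference of 2.48 ± 1.21 (limma, adjusted p = 0.523). Both turned below 0 without WT replicate 1, and without WT replicate 2 they were 2.78 and 5.43. Mir92-2 had 30.2 and 132 in WT and 12.7 and 30.9 in KO, a log2 difference of -1.63 ± 0.63 (limma, adjusted p = 0.413).

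**Figure D4:**
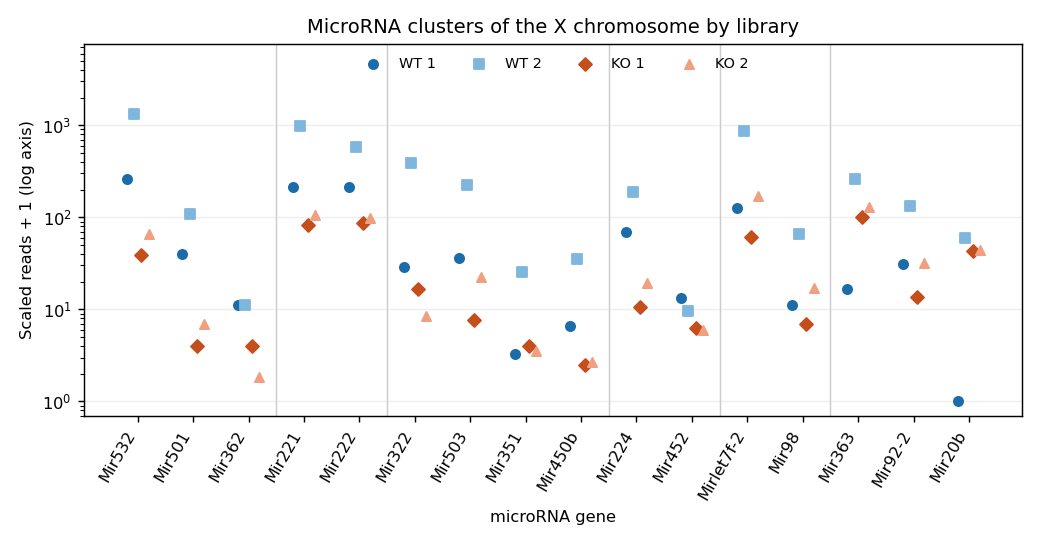
Points give scaled reads + 1 on a log axis in each library for the 16 genes of the 6 X chromosome clusters, with vertical lines between clusters. In the rightmost cluster the KO libraries lie between the WT libraries for Mir363, Mir20b and, in KO 2, Mir92-2, while for Mir532 and Mir501 both lie well below.

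The mixture of microRNAs differed between libraries as well as their sum. Mir10b, Mir148a, Mir99a and Mir10a held 46.4% and 70.2% of the reads of the 107 genes in WT and 42.5% and 41.7% in KO. As shares of these reads, 34 genes were above in both KO libraries, 14 were below in both and 59 overlapped. These orders were not counted over all genes tested, whose median log2 difference was 2.16 when scaled to microRNA reads. The counts are thus a description of the mixture alone. These shares are given with no test, since a share falls when the leading genes take more. Among those higher in share, Mir128-1 had 0.956% and 1.02% in KO against 0.248% and 0.147% in WT. Mir363 had 0.848% and 0.861% in KO against 0.0519% and 0.170% in WT. Mir501, Mir193a and Mir532 were below in share in both KO libraries, and Mir501 and Mir193a had reached the read threshold only through WT.

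Libraries did not differ in a single direction for every gene. In 14 genes WT replicate 2 was below WT replicate 1, and these included microRNAs of epithelial tissues. Mir200c, which holds epithelial identity by repressing Zeb factors, had 112 and 35.8 scaled reads in WT and 20.1 and 30.1 in KO. Mir203, a microRNA of the epidermis, had 204 and 81.7 in WT and 52.1 and 46.8 in KO. WT replicate 1 was the highest library for both. Mir200a had 148 and 61.6 in WT and 182 and 74.4 in KO, and Mir200b had 112 and 120 in WT and 77.4 and 86.1 in KO. Of the 16 epithelial, neuronal and liver microRNA genes listed, these 4 were selected and 12 were listed at 0, the genes of miR-122 and miR-124 among them. Of the 12, 11 overlap an exon of another gene, so these counts of 0 are not read as absence. Mir184, an eye and skin microRNA singled out after its values were seen, had 1279 scaled reads in WT replicate 1 and 28.7 in WT replicate 2, with 78.9 and 110 in KO. It alone made up 4.23% of the reads of the 107 genes in WT replicate 1.

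Other families were represented by few genes. Of 24 microRNA genes linked to muscle stem cells, 8 were selected and 12 were listed at 0, of which 11 overlap an exon of another gene. Both KO libraries were below both WT libraries in 7 of the 8, and the median log2 difference of the 8 was -2.20. This median was -1.21 without WT replicate 2, -3.21 without WT replicate 1 and 0.13 when scaled to microRNA reads, where its sign turned. Mir29a, which targets collagens, had 162 and 582 scaled reads in WT and 72.2 and 67.7 in KO (limma, adjusted p = 0.221). The 3 selected genes of the miR-15/16 family, the 3 of the miR-23/27/24 clusters and both selected genes of the miR-30 family all had separate groups with KO lower, as did Mir143, Mir145a and Mir199b of the mesenchymal list. In the miR-125 family this held for 1 of 2 genes, in the miR-34 family for 2 of 3, and in the miR-17 family clusters for 1 of 4, where 20.8% of all genes tested had this order. Of the genes counted, Mir125b-2, Mir15b and Mir34a had 17, 14 and 8 reads in the KO libraries and reached 20 only with those of WT, so their order was partly set by the selection. Scaled to total reads, the groups of Mir15b, Mir23a, Mir27a, Mir34a and Mir143 overlapped. None of these genes passed the adjusted threshold.

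Of 10 blood cell microRNA genes, 3 were selected. Mir146, which dampens innate immune signalling, had 376 and 1150 scaled reads in WT and 78.2 and 81.1 in KO, a log2 difference of -3.03 ± 0.54 (limma, adjusted p = 0.0503). Mir146b had 511 and 1822 in WT and 111 and 210 in KO, and Mir150 had 76.2 and 214 in WT and 29.0 and 21.7 in KO. The genes of miR-142, miR-223 and miR-451, which define blood cells, were listed at 0, as was endothelial Mir126a. These genes overlap exons of other genes, so a count of 0 says nothing about the cells. Of the 7 immune protein markers, Itgam and Cd3e were at 0 and the remaining 5 had 11 to 58 reads over the 4 libraries, Cd68 the most.

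Whether a microRNA gene had reads went with its cover by exons of other genes (GENCODE vM21, same build). Of 1618 microRNA genes with no overlap on either strand, 266 (16.4%) had at least 1 read and 111 had at least 20. Of 185 genes partly covered, 25 (13.5%) had at least 1 read and 8 had at least 20. Of 404 genes wholly covered, 0 had a read, and this held for 286 with a covering gene on the same strand and for 118 with one on the other strand only. The wholly covered genes include Mir21a in Vmp1, Mir31, Mir214, Mir17 and its cluster in Mir17hg, Mir25 and Mir93 in Mcm7, and Mir126a in Egfl7. The 6 selected genes with an overlap, Mir30b, Mir328, Mir484, Mir125b-2, Mir181a-1 and Mir34a, were covered over 5.63% to 28.4% of their length. As background, HTSeq by default leaves out a read that it could assign to more than 1 gene. The setting used, and whether reads were counted by strand, was not given in the sources used here. Since no wholly covered gene had a read, a count of 0 for such a gene is no measure of its level.

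**Figure D5:**
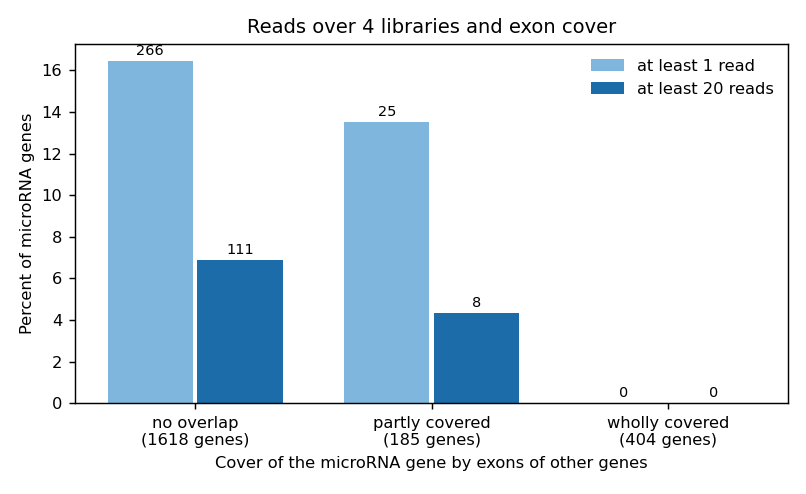
Bars give the percent of microRNA genes (y axis) with at least 1 read or at least 20 reads over the 4 libraries, by how far the gene is covered by exons of other genes (x axis), with the number of genes above each bar. No wholly covered gene had a read.

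The genes that make and use microRNAs were measured in the same libraries, here as protein-coding footprints. Of 23 listed, 17 had at least 20 reads, 0 passed the adjusted threshold (limma, lowest adjusted p = 0.402), and at an unadjusted p under 0.05 there were 2 higher and 0 lower. These were Xpo5, which exports the hairpin from the nucleus, with 31 and 25 reads in WT and 120 and 93 in KO and a log2 difference of 1.22 ± 0.43, and its cofactor Ran, with 34 and 100 reads in WT and 201 and 246 in KO and 1.23 ± 0.56 (SE, limma, adjusted p = 0.402 and 0.489). For Ago2, the slicing Argonaute, there were 102 and 37 reads in WT and 42 and 61 in KO, a log2 difference of -0.95 ± 0.49. For Drosha it was -0.81 ± 0.46. Scaled to total reads, these 4 values were 1.82, 1.84, -0.34 and -0.23 in the order Xpo5, Ran, Ago2 and Drosha, on a scale where the median gene was at 0.62. The median log2 difference of the 17 genes was 0.04, with both KO libraries above in 4 genes (23.5%), below in 3 (17.6%) and overlapping in 10. These shares, and the 11.8% at an unadjusted p under 0.05, were near those over all genes tested, which were 22.7%, 20.8% and 10.1%.

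Some other features of the libraries moved with the groups. Protein-coding genes took 41.5% and 33.9% of reads in WT and 65.4% and 59.2% in KO, and mitochondrially encoded genes 40.0% and 30.8% in WT and 15.4% and 19.3% in KO. The 7 myoblast markers summed to 567 and 344 scaled reads in WT and 267 and 217 in KO, with 4 of 6 tested below in both KO libraries, Pax7 and Myog among them, where 20.8% of all genes tested had this order. As percents of all gene-assigned reads the sums overlapped between the groups, at 0.0780% and 0.0374% in WT and 0.0510% and 0.0398% in KO. The 8 fibroblast and mural markers summed to 1980 and 1269 scaled reads in WT and 3274 and 1572 in KO, which overlap. As percents of all gene-assigned reads both KO libraries lay above, at 0.273% and 0.138% in WT and 0.625% and 0.289% in KO. On that scale 48.2% of all genes tested had this order. In scaled reads both KO libraries were below both WT libraries for 3 (Acta2, Rgs5 and Thy1), above for 1 (Pdgfra) and overlapping for 4. Scaled to total reads, the log2 differences of Acta2, Rgs5 and Thy1 were 0.01, -0.07 and 0.22. The 6 endothelial markers summed to 379 and 354 in WT and 486 and 401 in KO, with 4 above in both KO libraries, where 22.7% of all genes tested had this order, and 2 overlapping. The 7 immune markers summed to 31.4 to 35.8 over all libraries, while of the 3 tested Adgre1 was above in both KO libraries (1 and 3 reads in WT, 13 and 11 in KO) and Cd68 and Lyz2 were below. Adgre1 reached the read threshold only with its KO reads and Lyz2 only with its WT reads, so their orders were partly set by the selection. Csf1r, not tested, had 13 reads in all, 12 of them in KO. The part of these differences in the microRNA levels was not tested.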

How the data were processed

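Ribo-seq was performed by the authors on 4 libraries. Lysates were digested with RNase I, ribosome complexes were collected on MicroSpin S-400 resin and fragments were size-selected by PAGE. After removal of low-quality, adapter, rRNA and tRNA reads, the authors aligned reads with TopHat2 to mm10 and counted them per gene with HTSeq on Ensembl release 97. Versions, strand setting and treatment of reads with several matches are not given in the sources used here.

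The deposited values are RPKM. Reads were recovered as the product of RPKM and gene length over the least such product above 0 in that library, and 100.0% of values came out whole (tolerance 0.001). Implied denominators were 602863, 471136, 906990 and 807705 for WT replicates 1 and 2 and KO replicates 1 and 2, so the deposited values carry size factors and not library totals. Totals were 648386, 642429, 704006 and 650210 reads. A floor of 3 reads was used, equal to 3.36, 4.30, 2.23 and 2.51 scaled reads.

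All 9179 genes with at least 20 reads were fitted with limma 3.58.1 (R 4.3.3; lmFit, eBayes with trend) on log2(scaled reads + 1), which understates differences of low genes, with two-sided Benjamini-Hochberg adjusted p-values. The fit was tested on simulated data. Tables and plots used Python 3.11.15, pandas 2.3.3 and matplotlib 3.10.9. Replicates were distinct: chi-square per degree of freedom over the selected genes was 138 between WT libraries and 7.57 between KO libraries.

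Members and lists were chosen with earlier results of these data known. Genes were named by rule: the let-7, miR-10/99/100 and muscle lists, the X clusters, the 5 genes with most reads, those past the threshold, the 5 largest increases and decreases with separate groups, those beside the read threshold, and examples of the other lists. Alternatives covered pseudocount, filter, scaling, variance model, replicate block and each library left out. Exon overlap was taken from GENCODE vM21. RefSeq mature entries matched 98 of the 107 genes.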

Additional observations from a re-analysis of the deposited data

How the results depend on the processing

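The number of genes past the threshold depended on the settings. It was 7 of all genes tested and 1 of the selected microRNA genes in the reported fit. The counts for all genes and for microRNA genes were 3 and 1 with a pseudocount of 0.5, 16 and 5 with a pseudocount of 5, 12 and 0 on log2(RPKM + 1), 128 and 45 without a filter, 0 and 0 with at least 100 reads, 39 and 16 with voom, 0 and 0 without the variance trend, 0 and 0 scaled to total reads, and 1 and 0 scaled to microRNA reads. Leaving out 1 library at a time gave 23 to 388 genes and 9 to 62 microRNA genes: 142 and 62 without WT replicate 1, 388 and 17 without WT replicate 2, 23 and 9 without KO replicate 1, 80 and 28 without KO replicate 2. The lone library of a group is then assumed to vary like the other group. The cause of these differences was not tested.

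The replicate block gave 198 genes and 56 microRNA genes. The study calls the WT mice littermates of the KO mice, but neither it nor the labels say which libraries share a litter or day. There are only 2 pairs, and the deviations of same-numbered libraries correlated at 0.0964 over all genes and 0.131 over the selected genes. With fewer pairs than the 3 needed to judge this from the data, the numbers were not taken to pair the libraries.

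The median log2 difference of the selected genes ran from -2.65 to -1.12 when 1 library was left out and turned to 0.47 when scaled to microRNA reads. It was -1.75 over genes with 20 reads in the KO libraries alone, a setting chosen after seeing the data. The microRNA share stayed lower in KO, by -14.2 to -1.72 percentage points when 1 library was left out.

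Over 24 named genes, 319 of 330 recomputed differences kept their sign, 63 passed the threshold where the reported value did not, and 5, all of Mir501, missed it. Scaled to microRNA reads, the sign turned for Mir143 (1.33), Mir221 (0.047), Mir222 (0.39), Mir351 (0.72), Mir452 (1.07), Mir92-2 (0.65), Mir98 (0.90) and Mirlet7f-2 (0.64). It also turned when 1 library was left out, for Mir20b (range -0.47 without WT replicate 1 to 5.43 without WT replicate 2), Mir363 (-1.17 to 2.78, the same libraries) and Mir351 (-2.76 without WT replicate 1 to 0.21 without WT replicate 2). The number of clusters was 13 at a gap of 10 kb and 14 at 50 kb. Depth limits the 18 genes with a library at or under 3 reads.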
